A study of Rattus norvegicus with 4 samples.

Results

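The genes described here are 10 regulators of the mTOR complexes and of TOP mRNAs, matched by gene symbol: Mtor, Rptor, Rictor, Mlst8, Akt1s1, Larp1, Rps6kb1, Rps6kb2, Tsc1 and Tsc2. All 10 had a row among the 31038 rows of the deposited footprint counts, and all 10 had enough reads to be among the 12672 rows tested. Ribosome-protected fragments were sequenced from cultured rat myocardial cells. The si3m group (2 libraries) had received an siRNA against eIF3m, a subunit of the initiation factor that joins the small ribosomal subunit, and the siNT group (2 libraries) had received a control siRNA. All cells were grown in DMEM with fetal bovine serum and antibiotics, and all received cycloheximide, which stalls ribosomes, before lysis. The labels call the cells NRVM, commonly read as ventricular myocytes of newborn rats, whereas the growth protocol names embryonic heart. The stage of the animals is therefore unclear. Beyond this, the labels do not state the strain, the age of the animals, the amount of siRNA or the time until harvest. Nor do they say that a group's 2 libraries stem from different cultures, and p-values then reflect only how these libraries varied, which may be technical. The comparison asks which footprints differ when eIF3m is reduced, in a study whose title concerns injury of the heart after ischemia and reperfusion.

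mTOR is a protein kinase that works in a pair of complexes. In complex 1 (mTORC1) it is joined by the scaffold Raptor (Rptor), by mLST8 and by the inhibitor PRAS40 (Akt1s1). In complex 2 (mTORC2) Rictor takes the place of Raptor, and mLST8 is shared. Tuberin (Tsc2) and its partner hamartin (Tsc1) restrain mTORC1 by switching off the GTPase Rheb. Active mTORC1 phosphorylates the S6 kinases (Rps6kb1 and Rps6kb2) and the 4E-BP proteins, and it relieves the repression by LARP1 of mRNAs that begin with a terminal oligopyrimidine (TOP) element. TOP mRNAs encode ribosomal proteins and other parts of the translation machinery. In the heart this pathway is known for its part in growth and hypertrophy of cardiomyocytes.

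A TOP element is a C at the very start of the mRNA followed by an unbroken run of pyrimidines, and it is the sequence that LARP1 binds. Annotated starts from RefSeq (build GRCr8) are shown for the 3 regulators whose footprints fell and for 3 ribosomal protein genes that have such a run, namely those with the smallest p. Each line gives 5 bases before and 15 bases from the annotated start, 5′ to 3′, and capitals mark the run of C and T.

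Mtor: cggctcaggcggcggtagct
Rictor: cgcgcggggaggggaagggg
Larp1: ccgccgcccgccgcggatcg
Rplp0: caCTTCTCTCgccaggcgtc
Rpl4: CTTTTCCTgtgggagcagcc
Rps18: ccgCTCTCTCTTCCacagga

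In that order the windows lie at chr5:164167980-164167999 on the plus strand, chr2:57539274-57539293 on the plus strand, chr10:42691828-42691847 on the plus strand, chr12:46718376-46718395 on the minus strand, chr8:73566472-73566491 on the plus strand and chr20:4933740-4933759 on the plus strand. The search was for a C followed by at least 5 pyrimidines on the gene's own strand, within 5 bases before to 10 bases after the start. Its length and window were chosen after the data were seen. Such a run stood at 36 of 62 ribosomal protein starts (58.1%) and at 8.85% of all 27457 RefSeq starts. Of the 10 regulators, 9 had an annotated start in the table and 0 of these 9 had such a run. Annotated starts can miss the base at which transcription begins, and a missing run says only that these letters are not in this window.

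Total counts were between 6726969 and 8687598 in si3m and between 3835750 and 3924434 in siNT. The siRNA target Eif3m had 138 and 191 CPM (counts per 1000000, TMM-scaled) in si3m, against 532 and 451 CPM in siNT, a 3.01-fold fall (log2 fold change -1.59, SE 0.11, edgeR adjusted p = 3.41e-08; 0.0522 with robust quasi-likelihood). The labels call the cells NRVM, commonly read as ventricular myocytes of newborn rats, but the growth protocol names embryonic heart. Of 12 cardiomyocyte markers, 5 had at most 6 counts in every library, with Tnni3 and Nppa at 0 throughout. Together the 12 made up 49.5 to 58.0 CPM (of library totals) in si3m and 70.9 to 76.4 CPM in siNT. Within this sum Ttn and Pln fell (log2 -0.64 and -1.56), whereas Tnnt2 rose (log2 1.25), and Myh6, Actc1 and Actn2, too low to be tested, lay above siNT in both si3m libraries. The 10 fibroblast markers summed to between 15553 and 15779 CPM in si3m and between 11805 and 11885 in siNT, with Tcf21 at 0 in every library and Dcn at 24 and 20 counts in si3m, against 0 in both siNT libraries. The collagens Col1a1, Col1a2 and Col3a1, Postn, Dcn and Ddr2 rose, but Fn1 fell (log2 -0.16, SE 0.03). The 6 smooth muscle markers summed to between 3566 and 3572 CPM in si3m and between 3218 and 3239 in siNT, where Acta2 rose (log2 0.35) and Tagln fell (log2 -0.23). The 5 leukocyte markers summed to between 0.892 and 1.38 CPM in si3m and between 10.2 and 13.0 in siNT, with Adgre1 at 4 and 0 counts in si3m, against 24 and 34 in siNT. Endothelial and erythroid markers stayed below 6 CPM in sum. Cardiomyocyte markers were thus low in sum beside those of fibroblasts and smooth muscle, and the sums moved with group while single markers went both ways. Their part in the results below was not tested. Footprint counts cannot tell fewer cells of a type from fewer footprints per cell, and RNA-seq of the same cells was not used here, so a change in footprints cannot be told apart from a change in mRNA.

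Of the 10 regulators, 3 were lower in si3m (Mtor, Larp1 and Rictor), 0 were higher and 7 did not pass edgeR's quasi-likelihood test at an adjusted p of 0.05. At an unadjusted p of 0.05 these counts were 4 lower and 0 higher, and DESeq2 called 2 lower and 0 higher. Among all 12672 rows tested, 27.8% were called, 14.0% higher and 13.9% lower. The split moved with scaling, from 50.2% of calls being higher under TMM to 39.2% under total count scaling, where 4 of the regulators were lower. The 3 of 10 regulators called is therefore near the share of all rows called. The median log2 fold change was -0.21 over the 10 regulators and 0.02 over all rows tested. The si3m and siNT values did not overlap for 7 of the 10 regulators, 6 lying below siNT and 1 above, against 63.9% of all tested rows without overlap.

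**Figure D1:**
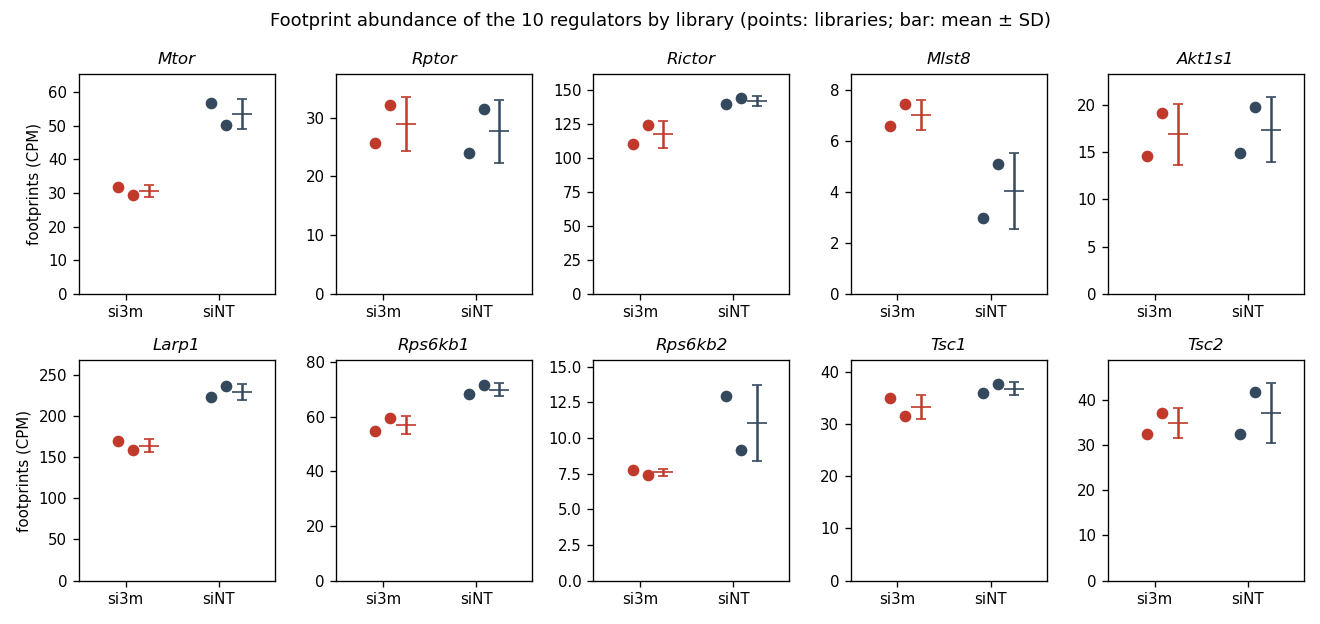
Footprint abundance in CPM (vertical axes from 0, TMM-scaled) of each of the 10 regulators, with 1 point per library and a bar for the mean ± SD of 2 libraries in si3m (red) and siNT (dark blue). Mtor at 29.4 to 31.8 CPM in si3m and 50.3 to 56.8 CPM in siNT shows the largest fold difference among the 3 genes that passed the test.

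Mtor, the catalytic kinase of both complexes, fell most among the 10. Its deposited counts were 270 and 190 in si3m, whose libraries were deeper, and 228 and 198 in siNT. Scaled, these were 31.8 and 29.4 CPM in si3m, against 56.8 and 50.3 CPM in siNT. Both si3m libraries lay well below both siNT libraries, a 1.75-fold fall that exceeded the spread between replicates (log2 fold change -0.80, SE 0.16, 95% interval -1.14 to -0.47, edgeR adjusted p = 0.00116). Of all rows tested, 7.04% had a lower log2 fold change. The call held in all 14 alternative settings, with log2 fold changes between -0.88 and -0.71 and adjusted p between 3.30e-05 and 0.00680. In the RefSeq annotation Mtor overlaps Angptl7 and a pseudogene, neither of which has a row of its own in the files.

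Rptor, the scaffold that brings substrates to mTORC1, did not pass the test. Its footprints stood at 25.7 and 32.2 CPM in si3m, against 23.9 and 31.5 CPM in siNT. The groups overlapped, and replicates of the same group differed more than the group means (log2 fold change 0.06, SE 0.21, 95% interval -0.38 to 0.50, edgeR adjusted p = 0.869). The sign of this small value turned under total count scaling (-0.02), without siNT replicate 1 (-0.13) and without si3m replicate 2 (-0.10).

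Rictor, which defines mTORC2, fell 1.21-fold. It had 110 and 124 CPM in si3m, against 139 and 144 CPM in siNT, from deposited counts of 936 and 804 in si3m and 560 and 568 in siNT. Both si3m values were lower than both siNT values, by a margin close to the difference between the si3m replicates (log2 fold change -0.28, SE 0.09, 95% interval -0.46 to -0.09, edgeR adjusted p = 0.0263). The call was lost in DESeq2 (adjusted p = 0.0804), without siNT replicate 2 (adjusted p = 0.0697) and without si3m replicate 1 (log2 -0.18, adjusted p = 0.319).

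Mlst8, the small subunit common to both complexes, was thinly covered, with deposited counts of 56 and 48 in si3m and 12 and 20 in siNT. That gave 6.59 and 7.42 CPM in si3m, against 2.99 and 5.08 CPM in siNT. It was the only one of the 10 with both si3m values above both siNT values. The difference did not pass the test (log2 fold change 0.79, SE 0.43, 95% interval -0.12 to 1.70, edgeR adjusted p = 0.189). Its log2 fold change was 0.46 without siNT replicate 1 and 1.23 without siNT replicate 2. Akt1s1, which encodes the mTORC1 inhibitor PRAS40, had 14.6 and 19.2 CPM in si3m, against 14.9 and 19.8 CPM in siNT. Its groups overlapped almost wholly (log2 fold change -0.05, SE 0.25, 95% interval -0.59 to 0.49), and its sign turned without siNT replicate 2 (0.17) and without si3m replicate 1 (0.15).

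**Figure D2:**
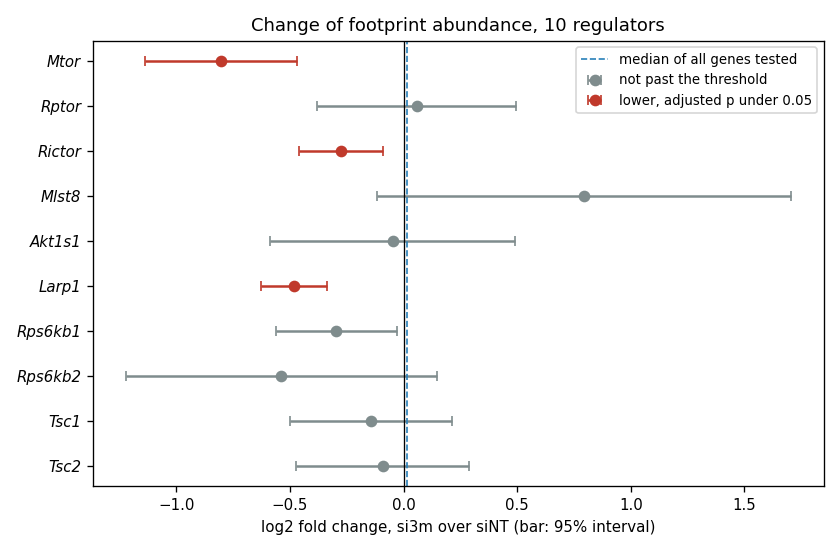
Log2 fold change of footprint abundance, si3m over siNT (horizontal axis), for the 10 regulators, with 95% intervals from the edgeR fit. Mtor (-0.80), Larp1 (-0.48) and Rictor (-0.28), in red, passed the adjusted p threshold, and the dashed line marks the median of all genes tested (0.02).

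The proportions between subunit footprints were set side by side within libraries. A ratio of counts within a library does not depend on how libraries are scaled, and since it is not corrected for transcript length it is compared between libraries only. There were 0.807 and 1.09 Rptor counts per Mtor count in si3m, against 0.421 and 0.626 in siNT, a ratio of means of 1.82. Both si3m libraries had more Rptor per Mtor than either siNT library. Rictor counts per Mtor count were 3.47 and 4.23 in si3m, against 2.46 and 2.87 in siNT, a ratio of means of 1.45 without overlap of the groups. Both of these ratios have Mtor as denominator, so they are not separate from the fall of Mtor given above. Between the scaffolds, Rictor counts per Rptor count were 4.29 and 3.87 in si3m, against 5.83 and 4.58 in siNT. The si3m values were lower, although siNT replicate 2 lay closer to si3m replicate 1 than to siNT replicate 1. These ratios are given as descriptions with no test, and the smallest p of an exact permutation test of 2 libraries against 2 is 0.333.

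Neither Tsc1 nor Tsc2, the brake on mTORC1, passed the test. Tsc1 had 34.9 and 31.6 CPM in si3m, against 35.8 and 37.6 CPM in siNT (log2 fold change -0.14, SE 0.17, 95% interval -0.50 to 0.21, edgeR adjusted p = 0.575). Its si3m values lay just below those of siNT. Tsc2, the GTPase-activating subunit, had 32.5 and 37.1 CPM in si3m, against 32.4 and 41.7 CPM in siNT (log2 fold change -0.09, SE 0.18, 95% interval -0.47 to 0.29). Its groups overlapped, and its sign turned without siNT replicate 2 (0.11) and without si3m replicate 1 (0.02). Tsc1 counts per Tsc2 count were 1.07 and 0.850 in si3m, against 1.11 and 0.902 in siNT, with overlapping groups. Tsc2 overlaps Pkd1 on the opposite strand in the RefSeq annotation. Pkd1 fell (log2 fold change -0.79, SE 0.12, adjusted p = 1.69e-04), and without a stated strand setting reads from their shared stretch cannot be assigned to either gene with certainty.

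**Figure D3:**
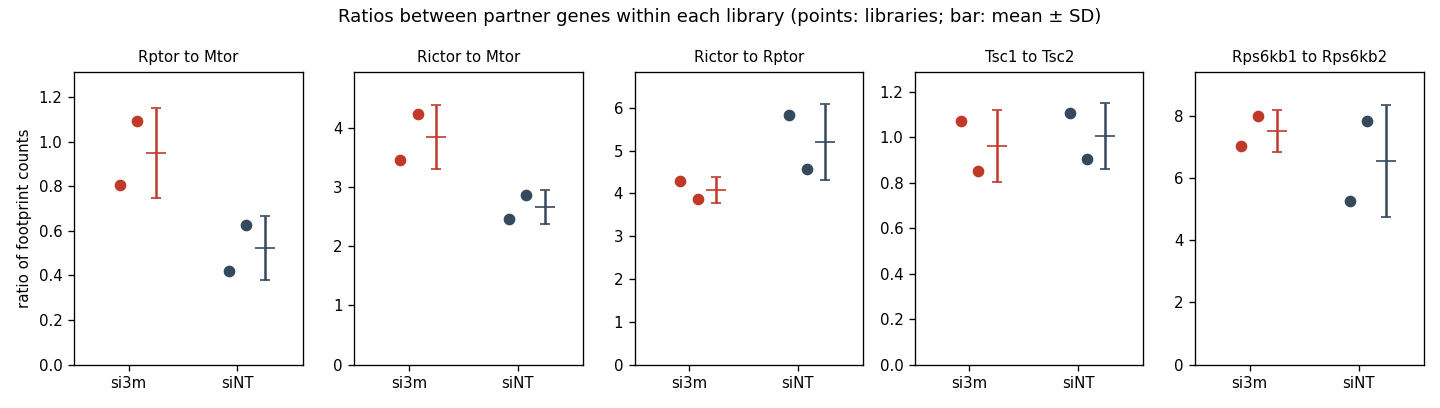
Ratio of footprint counts between partner genes within each library (vertical axes from 0, no unit, not corrected for length), with 1 point per library and a bar for the mean ± SD in si3m (red) and siNT (dark blue). Rptor to Mtor and Rictor to Mtor were higher in both si3m libraries than in both siNT libraries, whereas Tsc1 to Tsc2 and Rps6kb1 to Rps6kb2 overlapped.

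The S6 kinases, which mTORC1 activates and which phosphorylate ribosomal protein S6 and eIF4B, were lower in si3m without passing the test. Rps6kb1, which encodes S6K1, had 54.6 and 59.4 CPM in si3m, against 68.2 and 71.6 CPM in siNT. The groups did not overlap (log2 fold change -0.30, SE 0.13, 95% interval -0.56 to -0.03, edgeR adjusted p = 0.0927), and under total count scaling the difference passed (log2 -0.38, adjusted p = 0.0335). Rps6kb1 overlaps Rnft1 on the opposite strand in the annotation, whose log2 fold change was -0.28 (SE 0.12), so their counts are uncertain. Rps6kb2, which encodes S6K2, had 7.77 and 7.42 CPM in si3m, against 12.9 and 9.15 CPM in siNT, from at most 66 counts in any library. The siNT replicates differed more between themselves than siNT replicate 2 did from si3m (log2 fold change -0.54, SE 0.32, 95% interval -1.22 to 0.15, edgeR adjusted p = 0.239). Its log2 fold change was -0.26 without siNT replicate 1 and -0.76 without siNT replicate 2. Rps6kb1 counts per Rps6kb2 count were 7.03 and 8 in si3m, against 5.27 and 7.83 in siNT, with overlapping groups.

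Larp1 encodes the protein that binds the cap and the TOP element together and keeps TOP mRNAs stable but untranslated when mTORC1 is inactive. It was the best covered of the 10 by count, with 1444 and 1026 deposited counts in si3m and 897 and 932 in siNT. Scaled, it had 170 and 159 CPM in si3m, against 223 and 237 CPM in siNT. All si3m values were clearly below all siNT values, a 1.40-fold fall (log2 fold change -0.48, SE 0.07, 95% interval -0.63 to -0.34, edgeR adjusted p = 7.07e-05). The call held in all 14 alternative settings, with log2 fold changes between -0.56 and -0.43.

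Other proteins with a La motif, the RNA-binding fold that Larp1 shares, were also mostly lower. Of 6 tested, 4 fell, 0 rose and 2 did not pass (at an unadjusted p of 0.05 and in DESeq2 also 4 and 0), beside 13.9% of all rows lower and 14.0% higher. Their median log2 fold change was -0.61, against 0.02 over all rows. Under the stricter low-count filter, which dropped the thinly covered Larp6, the median of the 5 genes left was -0.45. Larp1b, the closest relative of Larp1, had 15.1 and 14.8 CPM in si3m, against 34.3 and 33.0 CPM in siNT, a 2.25-fold fall (log2 -1.17, SE 0.20, edgeR adjusted p = 4.83e-04). Larp4, which binds poly(A) tails, had 25.4 and 24.1 CPM in si3m, against 49.3 and 45.7 CPM in siNT (log2 -0.94, SE 0.17, adjusted p = 5.39e-04). For both genes the distance between the groups was many times the distance between replicates. Larp4b fell 1.24-fold (log2 -0.31, SE 0.08, adjusted p = 0.00855), and Ssb, the La protein that guards the ends of new RNA polymerase III transcripts, fell 1.36-fold (log2 -0.44, SE 0.12, adjusted p = 0.0108). These 2 calls rested on single libraries. Larp4b was lost without si3m replicate 1 (adjusted p = 0.111), and Ssb without si3m replicate 1 (0.0615) and without siNT replicate 1 (0.0851), which left 2 and 3 members lower. Ssb overlaps Mettl5 on the opposite strand, which fell by 1.23 on the log2 scale (SE 0.40), so its counts are uncertain. Larp7, which holds the 7SK small nuclear RNA, had 31.1 and 33.4 CPM in si3m, against 27.4 and 25.9 CPM in siNT, and did not pass (log2 0.27, SE 0.18, adjusted p = 0.293). Larp6, counted among the 6 tested, had at most 16 counts in any library and gives no usable value.

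**Figure D4:**
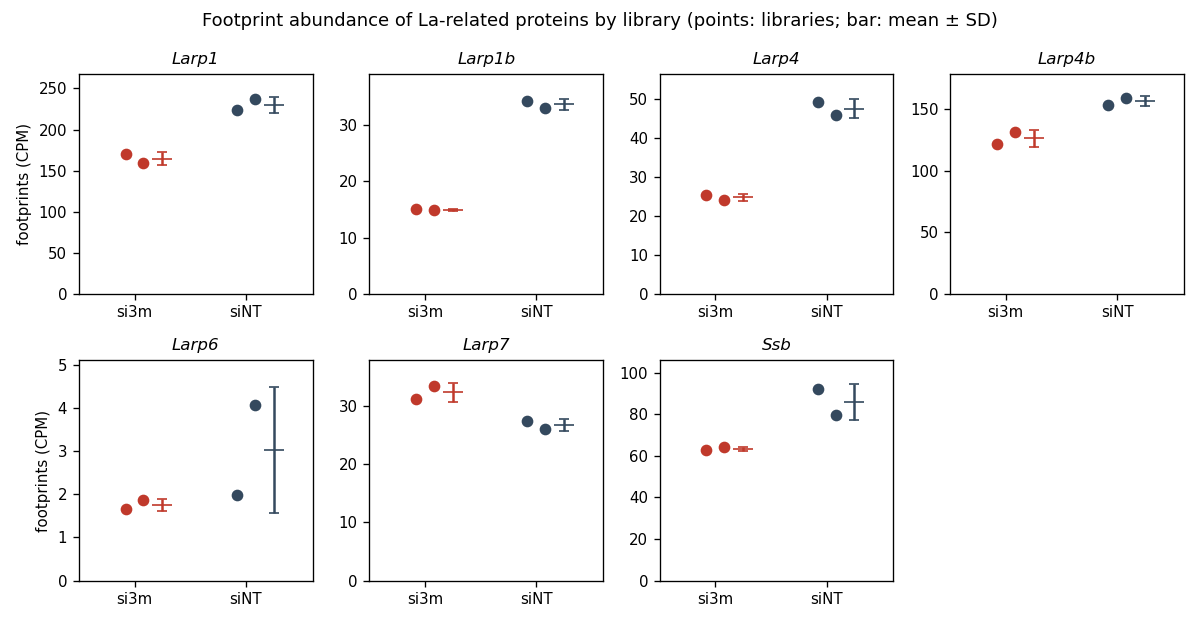
Footprint abundance in CPM (vertical axes from 0, TMM-scaled) of Larp1 and 6 other genes of La-motif proteins, with 1 point per library and a bar for the mean ± SD in si3m (red) and siNT (dark blue). Larp1b at 14.8 to 15.1 CPM in si3m and 33.0 to 34.3 CPM in siNT shows the largest fold difference among the genes that passed the test. Larp7 is the 1 gene with both si3m values above both siNT values.

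Of 5 further subunits and assembly factors of the mTOR complexes tested, 1 rose and 1 fell, beside 27.8% of all rows called. Deptor, an inhibitor bound to both complexes, had 82.2 and 82.6 CPM in si3m, against 115 and 121 CPM in siNT, a 1.43-fold fall (log2 -0.52, SE 0.09, edgeR adjusted p = 6.73e-04) that held in all 14 alternatives. Telo2, which together with the Tti proteins assembles mTOR and related kinases, had 17.7 and 22.3 CPM in si3m, against 7.96 and 10.7 CPM in siNT, a 2.13-fold rise (log2 1.09, SE 0.27, adjusted p = 0.00668). Leaving out si3m replicate 2 ended this call (adjusted p = 0.0588), and 0 of the 5 were then higher. Tti1, with 50.6 and 43.0 CPM in si3m, against 55.8 and 50.3 CPM in siNT, and the mTORC2 subunit Mapkap1 (log2 -0.19, SE 0.23) did not pass. Prr5, another mTORC2 subunit, had 0 counts in every library, so nothing can be said of it.

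Rheb, the GTPase that activates mTORC1 and that Tsc2 switches off, fell 1.19-fold. It had 182 and 195 CPM in si3m, against 213 and 235 CPM in siNT (log2 -0.25, SE 0.07, edgeR adjusted p = 0.0138). The call was lost without siNT replicate 2 (adjusted p = 0.128) and without si3m replicate 1 (adjusted p = 0.138). Tbc1d7, the third subunit of the TSC complex, had 19.8 and 16.7 CPM in si3m, against 9.46 and 13.7 CPM in siNT. Its higher si3m values did not pass (log2 0.66, SE 0.27, adjusted p = 0.0790), except without siNT replicate 2 (log2 0.96, adjusted p = 0.00983). Rhebl1, a relative of Rheb, had a log2 fold change of -0.30 (SE 0.42), which turned to 0.31 without siNT replicate 2 and to 0.08 without si3m replicate 2. So this list of 3 had 1 lower and 0 higher (1 higher and 1 lower at an unadjusted p of 0.05, 0 higher and 1 lower in DESeq2, 1 higher and 0 lower without siNT replicate 2, and 0 and 0 without si3m replicate 1), which is near the 27.8% of all rows called.

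Of 16 genes on the growth factor input through PI3K and AKT, 1 rose and 3 fell, near the 27.8% called over all rows, with a median log2 fold change of -0.07. Igf1r, the receptor for insulin-like growth factor, had 195 and 172 CPM in si3m, against 238 and 230 CPM in siNT (log2 -0.35, SE 0.07, edgeR adjusted p = 0.00167). Irs2, an adaptor of the insulin receptor, fell 1.38-fold (log2 -0.47, SE 0.13, adjusted p = 0.0115). Pik3r2, a regulatory subunit of PI3K, rose 2.10-fold, with 14.4 and 20.7 CPM in si3m, against 7.96 and 8.64 CPM in siNT (log2 1.07, SE 0.29, adjusted p = 0.0112). The calls of Irs2 and Pik3r2 depended on single libraries. Irs2 was lost without siNT replicate 2 (0.113) and without si3m replicate 1 (0.0585), and Pik3r2 without si3m replicate 2 (0.167), which left 0 genes of the list higher. Igf1r held in all 14 alternatives.

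On the side of energy and stress, 2 of 13 tested genes fell and 0 rose (at an unadjusted p of 0.05, 2 and 1; in DESeq2, 2 and 0), where 13.9% of all rows were lower and 14.0% higher. Prkaa2, a catalytic subunit of the energy sensor AMPK, which inhibits mTORC1 through Tsc2 and Raptor, had 43.1 and 48.0 CPM in si3m, against 68.7 and 77.7 CPM in siNT, a 1.61-fold fall (log2 -0.69, SE 0.13, edgeR adjusted p = 0.00118). The other catalytic subunit, Prkaa1, had more footprints and did not pass. It had 211 and 194 CPM in si3m, against 203 and 197 CPM in siNT (log2 0.02, SE 0.07, edgeR adjusted p = 0.876). Cab39, a scaffold of the kinase LKB1 upstream of AMPK, fell 1.44-fold, with 276 ± 9.37 CPM in si3m and 396 ± 22.0 CPM in siNT (SD, n = 2 each; log2 -0.52, SE 0.06, adjusted p = 8.17e-06). Both calls held in all 14 alternatives. Ddit4, a stress-induced inhibitor of mTORC1, had 39.6 and 35.9 CPM in si3m, against 26.9 and 29.5 CPM in siNT. The groups were apart but the difference did not pass (log2 0.42, SE 0.17, adjusted p = 0.0845), nor did that of Sesn1 (log2 0.32, SE 0.26).

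Amino acid input, which brings mTORC1 to the lysosome through the Rag GTPases, had 2 of 23 tested genes higher and 5 lower, near the share of 27.8% called over all rows, with a median log2 fold change of -0.21. Among the Rag GTPases, Rraga rose and Rragd fell. Rragc, lower in both si3m libraries than in both siNT libraries, did not pass (log2 -0.24, SE 0.10, edgeR adjusted p = 0.0845). Rraga, which encodes RagA, had 173 and 174 CPM in si3m, against 131 and 134 CPM in siNT (log2 0.39, SE 0.07, edgeR adjusted p = 8.75e-04). Rragd, which encodes RagD, had 7.77 and 4.33 CPM in si3m, against 14.4 and 17.3 CPM in siNT (log2 -1.36, SE 0.33, adjusted p = 0.00573). Rragd rests on at most 68 counts in a library, and its call ended when si3m replicate 2 was left out (adjusted p = 0.0527). Sec13, of the GATOR2 complex and also of COPII vesicles and nuclear pores, fell 1.51-fold (log2 -0.60, SE 0.12, adjusted p = 0.00180). Fnip1, a partner of folliculin, fell 1.27-fold (log2 -0.34, SE 0.08, adjusted p = 0.00605), a call lost without siNT replicate 2 (log2 -0.18, adjusted p = 0.128). Without si3m replicate 2 only 1 gene of this list was higher and 2 were lower, in DESeq2 1 and 3, without si3m replicate 1 1 and 5, and 1 was higher also under total count scaling, the stricter filter, thinning and the replicate block.

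Substrates of mTORC1 and of the S6 kinases counted 4 of 13 tested higher and 2 lower, where 14.0% of all rows were higher and 13.9% lower. Rps6, the ribosomal protein that S6 kinases phosphorylate and itself a TOP mRNA, had 234 and 314 CPM in si3m, against 149 and 127 CPM in siNT, a 1.98-fold rise (log2 0.99, SE 0.11, edgeR adjusted p = 7.95e-06) that held in all 14 alternatives. Eef2k, the kinase that slows elongation and that S6 kinases inhibit, rose 2.26-fold, with 15.1 and 19.2 CPM in si3m, against 7.47 and 7.62 CPM in siNT (log2 1.18, SE 0.28, adjusted p = 0.00547). Poldip3, which recruits S6K1 to spliced mRNAs, rose 1.49-fold (log2 0.58, SE 0.14, adjusted p = 0.00707). The 4E-BP genes parted. Eif4ebp1 had 29.2 and 28.8 CPM in si3m, against 16.9 and 20.3 CPM in siNT (log2 0.64, SE 0.21, adjusted p = 0.0309), whereas Eif4ebp2 had 45.2 and 44.5 CPM in si3m, against 56.8 and 62.5 CPM in siNT (log2 -0.41, SE 0.14, adjusted p = 0.0368). Eif4b, a helper of the initiation helicase, fell 1.21-fold (log2 -0.27, SE 0.08, adjusted p = 0.0169).

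All of these calls but that of Rps6 ended under some alternative. Eif4ebp1, Eif4ebp2 and Eif4b all failed in DESeq2 (adjusted p of 0.0923, 0.0920 and 0.0535) and without either si3m replicate (0.134, 0.154 and 0.0529 without replicate 1, and 0.112, 0.172 and 0.0662 without replicate 2). Eif4ebp1 and Eif4b failed without siNT replicate 1 (0.103 and 0.175), Eif4ebp2 without siNT replicate 2 (0.149) and with no low-count filter (0.0546), and Eif4ebp1 with total count scaling (0.0566). Eef2k was lost without si3m replicate 2 (0.0642) and Poldip3 without si3m replicate 1 (0.0580). The list then counted 2 higher and 0 lower without either si3m replicate, 3 higher and 0 lower in DESeq2, 3 and 1 without siNT replicate 1, 4 and 1 without siNT replicate 2 and with no low-count filter. Under total count scaling the list counted 3 higher and 3 lower. Rps6 overlaps Dennd4c on the opposite strand (log2 -0.17, SE 0.10), and ribosomal protein genes have pseudogene copies, so the counts of Rps6 are uncertain.

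Of 8 genes of kinases and other targets downstream of mTORC2, 1 fell and 0 rose (2 and 1 at an unadjusted p of 0.05, 1 and 0 in DESeq2), close to the 13.9% of all rows that were lower. Sgk1, a serum-induced kinase that mTORC2 activates, had 182 and 172 CPM in si3m, against 262 and 239 CPM in siNT, a 1.41-fold fall (log2 -0.50, SE 0.07, edgeR adjusted p = 4.51e-05) in all 14 alternatives. Without siNT replicate 2, 1 gene of this list was higher. Prkca, a protein kinase C, had a log2 fold change of 0.30 (SE 0.12), Sgk3 of -0.58 (SE 0.29) and the SGK1 substrate Ndrg1 of -0.99 (SE 0.42), and none of the 3 passed. Akt1 and Akt2, of this list and of the growth factor list, had log2 fold changes of -0.07 (SE 0.13) and -0.08 (SE 0.18) and did not pass.

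TOP mRNAs, on which LARP1 acts, were mostly higher in si3m. Of 16 textbook TOP mRNAs outside the ribosomal proteins, 11 rose and 2 fell, beside 14.0% of all rows higher and 13.9% lower, with a median log2 fold change of 0.29. The 2 that fell were Npm1, a ribosome assembly factor (log2 -0.45, SE 0.06), and Eif4b; 1 was lower in DESeq2, without siNT replicate 1 and without si3m replicate 2. Pabpc1, the poly(A)-binding protein that LARP1 also contacts, had 2076 and 2071 CPM in si3m, against 1432 and 1429 CPM in siNT (log2 0.54, SE 0.03, edgeR adjusted p = 7.91e-09). Rack1, a scaffold on the small subunit, had 477 and 482 CPM in si3m, against 272 and 286 CPM in siNT (log2 0.78, SE 0.06, adjusted p = 4.34e-08). Of 77 cytosolic ribosomal proteins, 42 rose and 6 fell. Under total count scaling 35 of these rose and 8 fell, and in DESeq2 35 rose and 5 fell. Of the 16 textbook TOP mRNAs 9 rose and 3 fell under total count scaling, and 9 and 1 in DESeq2. Among the starts printed above, Rplp0 and Rpl4 rose (log2 0.70, SE 0.05, and log2 0.76, SE 0.06) and Rps18 fell (log2 -0.76, SE 0.06). Of the 36 ribosomal protein genes with a pyrimidine run at the start, 20 were higher and 3 lower, close to the shares among all 77. Of the 4 textbook TOP mRNAs with a run, 2 were higher and the others did not pass, with a median log2 fold change of -0.02. Of 705 other tested genes with such a run, 15.2% were higher and 14.0% lower, close to the shares over all rows, and their median log2 fold change was 0.06.

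**Figure D5:**
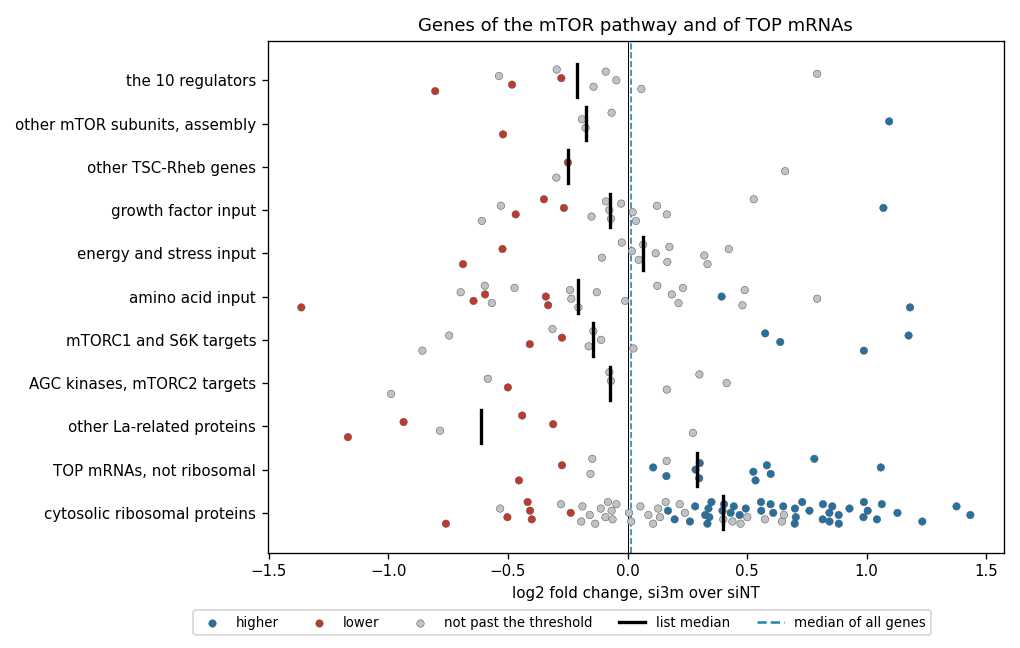
Log2 fold change of footprint abundance, si3m over siNT (horizontal axis), with 1 point per tested gene in the 10 regulators and 10 lists of related genes, coloured by whether the gene was higher, lower or not past an adjusted p of 0.05. Black bars mark list medians, from -0.61 for other La-related proteins (thinly covered Larp6 included) to 0.40 for ribosomal proteins. The dashed line marks the median of all genes (0.02).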

How the data were processed

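The authors deposited whole-number counts of footprint reads per gene symbol for 4 libraries, without normalization. The submitters' processing notes name the rat build rn6 and the tools featureCounts, HISAT2 2.2.1, Trimmomatic 0.40, DESeq2 and limma. The sources used here do not give their roles, the annotation, the strand setting or how multiply matching reads were treated. Per the labels' protocols, libraries were made with a small RNA kit from monosomes and polysomes. Between 94.9% and 97.3% of counts above 0 were even, as if most fragments were counted as a pair of reads, so low counts stand for fewer fragments. Replicates differed by 1.40 (siNT) and 1.48 (si3m) times the chi-square of counting noise on fragments and were kept as 2 samples.

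All rows were fitted together in edgeR 4.0.16 (R 4.3.3): filterByExpr (minimum count 10), scaling by TMM, then glmQLFit with a two-sided glmQLFTest, Benjamini-Hochberg adjustment over all 12672 rows and a threshold of 0.05. SE is the log2 fold change divided by the square root of F. CPM values are TMM-scaled except marker sums. The fit was also run on simulated counts that gave every gene the same dispersion, so that run does not bear on the calls reported here. DESeq2 1.42.0 was an alternative. Rows with a date in place of a symbol (27 of 31038) stayed in the fit unnamed. Symbols were matched to RefSeq (GRCr8) for names, overlaps and start sequences only; Rragb and Samtor of the amino acid list had no match, and Castor1 and Castor2 were read as Gatsl3 and Gatsl2. Of 53 named genes, 11 overlap a gene with its own row, so their counts are uncertain (Rps6kb1, Tsc2, Mlst8, Mapkap1, Rhebl1, Igf1r, Rps6, Eef2k, Sgk3, Ssb and Eef1d).

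The 10 genes and all lists were chosen with earlier results of these data known. Named genes were the 10, Eif3m, up to 4 of each list with the smallest p, and fixed partners. The partners were Deptor, Mapkap1, Prr5, Tbc1d7, Rheb, Eif4ebp1, Eif4ebp2, Rps6 and Larp1b. Npm1, Akt1, Akt2, Prkaa1, Larp6, Larp7, Rpl4, Rps18, Rragc and the overlapping genes were named after their values were seen. Some genes counted in the lists are not reported here by name. Reads were counted without molecular identifiers, so counts are not independent molecules.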

Additional observations from a re-analysis of the deposited data

How the results depend on the processing

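The 14 alternatives were RLE, upper quartile and total count scaling, DESeq2, robust quasi-likelihood, no low-count filter, a filter of 50 counts in 2 samples, thinning each library to 3835750 counts, halved counts, the replicate block and leaving out each library. With 1 library left out, edgeR assumes that the lone library of a group varies like the other group. Of 725 values of named genes under these alternatives, 679 kept their direction and their side of the threshold. Total count scaling shifted the median of all rows by -0.08 and turned Rptor to -0.024. With single libraries left out, log2 fold changes ran from -0.13 to 0.27 for Rptor, -0.24 to 0.17 for Akt1s1, -0.26 to 0.11 for Tsc2 and -0.83 to 0.31 for Rhebl1. Genes of the lists called higher numbered 18 of 98 tested outside the ribosomal proteins, and between 11 and 20 with a library left out; those lower numbered 20, and between 14 and 18. Beside these list counts, 14.0% of all 12672 rows tested were higher and 13.9% lower. Calls over all rows also became fewer in both directions when either si3m replicate was left out. The log2 ratio Tsc1 to Tsc2 of -0.06 turned to 0.045 with thinned counts and ran from -0.24 to 0.094 with a library left out. With a library left out, that of Rps6kb1 to Rps6kb2 (0.20) ran from -0.0598 to 0.51. The cause of these turns was not tested. The replicate block called 3 regulators lower and 0 higher, as without it, and 1851 rows higher and 1843 lower over all rows; same-numbered libraries did not deviate together (correlation -0.02 over tested rows). Depth limits Mlst8 and Rps6kb2, each with fewer than 70 counts in every library.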
